A study of Mus musculus with 6 samples.

Results

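Potassium channels are membrane pores that pass K+ ahead of Na+, and their conductance sets the resting potential of astrocytes close to the potassium equilibrium potential. Pore-forming subunits fall into voltage-gated, calcium- or sodium-activated, inward rectifier and two-pore-domain groups, and accessory subunits bind them and alter their gating or traffic. Astrocytes are known for a large passive potassium conductance and for clearing the K+ that active neurons release. The mRNAs of 90 such subunits were followed here in astrocytes of the upper and deep layers of mouse somatosensory cortex. They are the rows of the deposited table of 43383 rows whose symbol starts with Kcn, one or more small letters and a digit, with Kcnj10, Kcnj16 and the non-coding RNA Kcnq1ot1 set aside, so 90 of 93 matches were kept.

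Upper-layer astrocytes (ULAs, layers II–IV) and deep-layer astrocytes (DLAs, layers V and VI) were GFP-positive cells sorted from 4-week-old male Aldh1l1-eGFP mice, in which regulatory sequence of the astrocyte gene Aldh1l1 drives the reporter. Both groups carried this transgene, had no further treatment, and came from the same 3 brains, so each brain gave 1 ULA library and 1 DLA library. The sort keeps every cell with the reporter on. Layer I, the meninges, the corpus callosum and parts of layers IV and V were discarded in the dissection. The values are RPKM, read numbers divided by transcript length and by library depth, so levels of different genes can be set side by side per length. The level of each subunit in each layer is given first, followed by the comparison of the layers within brains.

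Depth read from the steps of the values was 24.4 to 26.7 M reads for the ULA libraries and 19.7 to 29.6 M for the DLA libraries. The 12 astrocyte markers examined summed to between 11220 and 12849 RPKM per library, against at most 15.3 RPKM for 12 neuronal markers. Oligodendrocyte markers (10 genes) summed, in order of brain, to 90.22, 87.70 and 181.29 RPKM for ULAs and to 179.19, 205.56 and 285.44 RPKM for DLAs, and 7 of the 9 tested passed the test as higher in DLAs. Haemoglobin and other red cell genes (4 rows found) summed to at most 1.79 RPKM in ULAs and to between 15.4 and 76.7 RPKM in DLAs. The 6 oligodendrocyte precursor markers summed to 85.4 to 96.8 RPKM in ULAs and 97.1 to 134 RPKM in DLAs, nearly all of it Olig1 and Olig2, and the defining markers Pdgfra and Gpr17 were at no more than 0.07 and 0.03 RPKM in any library. The sums of microglial markers (62.5 to 76.9 RPKM), mural markers (13.0 to 25.7 RPKM) and endothelial markers (0.85 to 2.58 RPKM) overlapped between the layers. Of the 3 tested mural markers, 1 passed as higher in ULAs. This was Rgs5, at 2.25 against 0.897 RPKM (adjusted p = 0.0455 by limma). The part of these cells in the values below was not tested.

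What a potassium channel subunit needs in order to form a pore can be read in its coding sequence. The selectivity filter, the narrow stretch where K+ loses its water, is written with the 5 residues threonine or serine, any residue, glycine, then tyrosine, phenylalanine or leucine, then glycine. All 90 members had a coding sequence in GENCODE M21 on GRCm38. Codons for this pattern occurred once in 58 members and at 2 places in 16, and in none of the 16 accessory subunits. The 16 with a pair were all 14 two-pore-domain members, together with Kcna6 and Kcnh2. The pattern is short, so a match is a description of the letters and not proof of a pore. The stretches are shown for the most abundant member, for the most abundant voltage-gated member (Kcnq3), and for Kcnma1 and Kcng4, pore subunits whose layers did not overlap. The codons of the 5 residues are in capitals, with 9 bases on either side, on the coding strand.
Kcnk1 first stretch: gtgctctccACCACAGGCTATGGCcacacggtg
Kcnk1 second stretch: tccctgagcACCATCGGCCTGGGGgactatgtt
Kcnq3: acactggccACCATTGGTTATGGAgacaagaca
Kcnma1: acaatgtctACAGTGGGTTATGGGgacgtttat
Kcng4: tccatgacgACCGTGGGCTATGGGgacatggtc
The first Kcnk1 stretch crosses an exon junction and runs from chr8:125995799 to 126025028 with the intron included, and the second lies within 1 exon at chr8:126025320-126025352, both on the plus strand of GRCm38. The others lie within 1 exon on the minus strand, at chr15:66023722-66023754 for Kcnq3, chr14:23528404-23528436 for Kcnma1 and chr8:119625901-119625933 for Kcng4.

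Few of the 90 subunits made up most of their summed mRNA. Of the 90 members, 3 had a mean of 50 RPKM or more over the 6 libraries (Kcnk1, Kcnn2 and Kcnq3), 11 lay from 5 to under 50 RPKM, 16 from 1 to under 5 RPKM, 19 from 0.1 to under 1 RPKM and 32 above 0 with a mean under 0.1 RPKM. The other 9 members (Kcna5, Kcna7, Kcne3, Kcng1, Kcnj1, Kcnj12, Kcnk18, Kcns2 and Kcnv2) were listed at 0 in all 6 libraries, where 3 reads in a library, the number that a count of 0 allows, would be worth 0.02 to 0.0886 RPKM depending on length and depth. Summed RPKM of all members was 1485.87, 1479.99 and 1440.74 in ULAs and 1448.72, 1363.37 and 1437.87 in DLAs, that is 1468.9 ± 24.5 against 1416.7 ± 46.5 RPKM (SD, n = 3 brains), and these ranges overlapped. Two-pore-domain members held 66.2% of the sum, voltage-gated alpha subunits 15.2%, calcium- or sodium-activated channels 13.7%, accessory subunits 4.65% and inward rectifiers 0.316%. These shares depend on the rule, which set aside the inward rectifiers Kcnj10 and Kcnj16. Those 2 genes were at 28.6 and 26.7 RPKM in ULAs and 31.6 and 23.9 RPKM in DLAs. The 13 inward rectifiers kept summed to means of 4.47 and 4.65 RPKM.

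**Figure D1:**
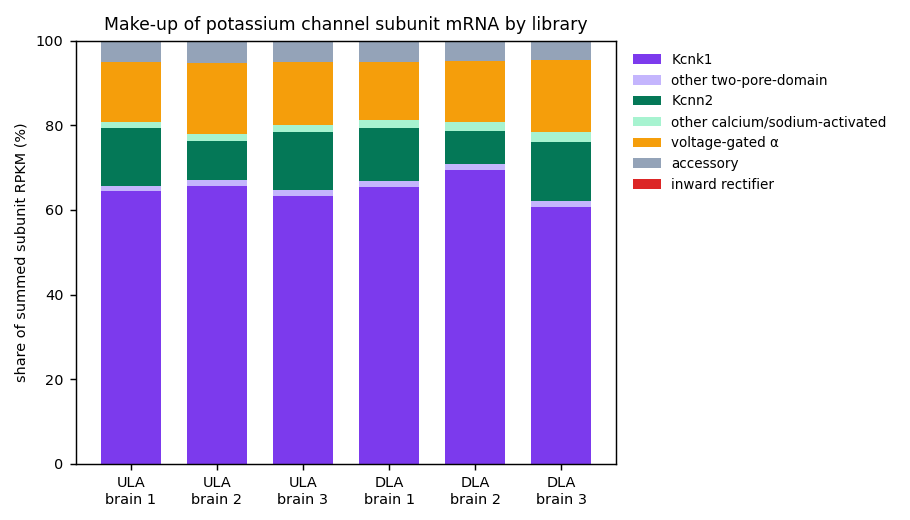
Stacked bars show the percentage of the summed RPKM of the 90 subunits in each of the 6 libraries, by group, with Kcnk1 and Kcnn2 apart. Kcnk1 held 60.8 to 69.4% of every library and Kcnn2 7.71 to 13.8%. Inward rectifiers, counted without Kcnj10 and Kcnj16, are too few to be seen.

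Kcnk1 encodes the two-pore-domain channel TWIK-1 and was ranked 48 of all 43383 rows by mean RPKM. Its levels were 957.58, 971.68 and 910.45 RPKM in ULAs and 947.06, 946.13 and 873.83 RPKM in DLAs, and it rested on 42925 to 59568 reads per library. The ULA library was the higher in each brain, but the layers overlapped. On the log2(RPKM + 1) scale, the scale of every difference given below as ULAs minus DLAs, the difference was 0.04 (SE 0.09, 95% interval −0.16 to 0.24, adjusted p = 0.872 by limma over 13999 rows), and the interval gives the precision of this comparison. Its row lies on mm9, the build of the table, at chr8:128519002-128554585 and has 3 exons. Among the other two-pore-domain members, the mechanosensitive channels of the TREK family followed, with Kcnk10 (TREK-2) at 14.0 ± 1.38 RPKM in ULAs and 14.4 ± 1.13 RPKM in DLAs and Kcnk2 (TREK-1) at 4.11 ± 1.18 and 4.41 ± 1.49 RPKM (SD, n = 3). Kcnk13, known as the channel THIK-1 of microglia, was near the limit of testing at a mean of 1.15 RPKM. None of these 3 passed the test, with differences of −0.04, −0.07 and 0.03. The TASK channels Kcnk3 and Kcnk9 had means of 0.025 and 0.00333 RPKM.

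**Figure D2:**
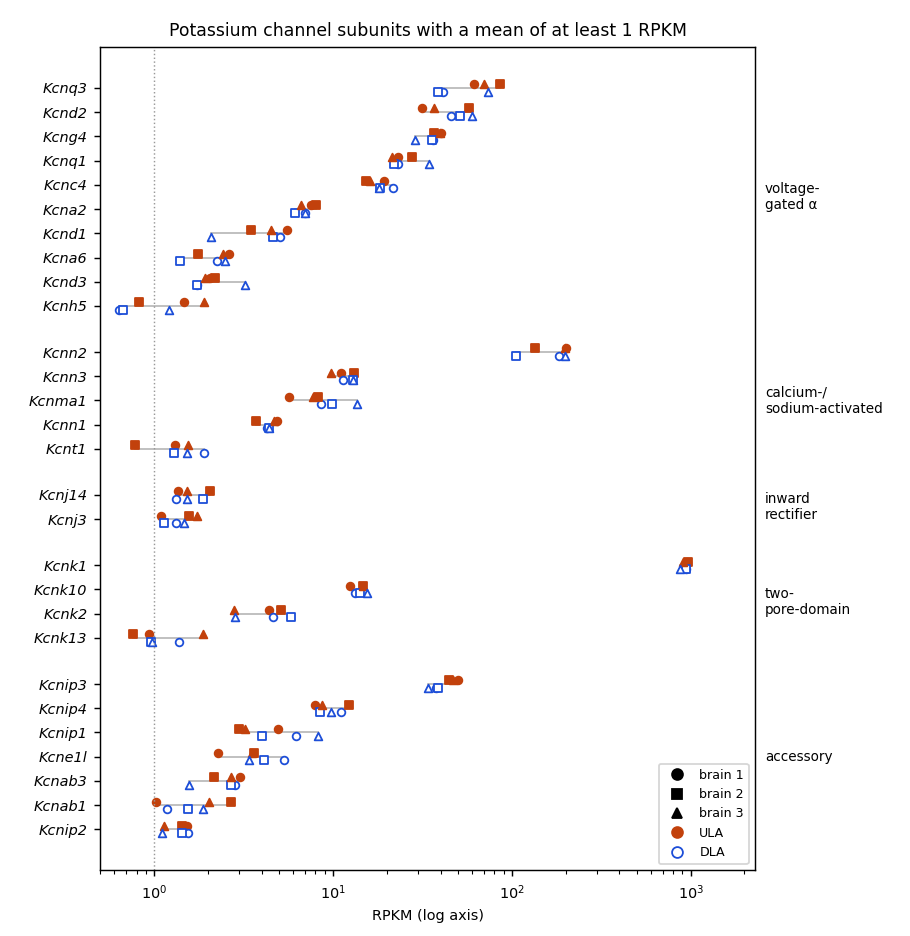
RPKM on a log axis of 28 of the 30 subunits with a mean of at least 1 RPKM (dotted line at 1), by group. Filled orange symbols are ULA libraries, open blue symbols are DLA libraries, symbol shapes mark the brain, and grey lines join the lowest and highest library. Kcnk1 stood alone at 873.83 RPKM or more, and the layers overlap in most rows.

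The inward rectifiers kept by the rule were low. The 13 members summed to 3.11, 5.61 and 4.68 RPKM in ULAs and 4.45, 4.95 and 4.55 RPKM in DLAs. Only Kcnj14 (Kir2.4) and Kcnj3 (the G protein-gated Kir3.1) reached a mean of 1 RPKM, with 1.65 ± 0.358 against 1.58 ± 0.278 RPKM and 1.46 ± 0.333 against 1.31 ± 0.17 RPKM, and neither passed. Of the exon bases of Kcnj3, 42.0% are shared with another row of the table, so part of its reads could belong there. Kcnj13 (Kir7.1) stood just outside the test at a mean of 0.982 RPKM, and Kcnj8, the pore of the ATP-sensitive channel of mural cells, at 0.00333 RPKM. The astrocyte inward rectifiers Kcnj10 (Kir4.1) and Kcnj16 (Kir5.1), not members here, had 28.6 ± 3.09 and 26.7 ± 1.97 RPKM in ULAs and 31.6 ± 0.775 and 23.9 ± 2.81 RPKM in DLAs, with adjusted p = 0.535 and adjusted p = 0.521 by limma.

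Of the 30 tested members, 1 passed at an adjusted p under 0.05 as higher in DLAs (3.33%), against 0.914% of all 13999 tested rows, and 0 passed as higher in ULAs, against 0.714%. Without brain 1 the count of members higher in DLAs was 0 and without brain 2 it was 2, and without brain 3 the count higher in ULAs was 1 (Kcnq3). A share of 1 in 30 is not to be read as a result about the subunits as a group. Over all rows 128 passed as higher in DLAs and 100 as higher in ULAs, a split that quantile normalization turned to 103 and 138. At an unadjusted p under 0.05, 3 members were higher in ULAs (10%, against 5.64% of all rows) and 3 in DLAs (10%, against 10.8%). The layers did not overlap, that is, all 3 libraries of a layer lay above all 3 of the other, for 2 members higher in ULAs (Kcnip3 and Kcng4), 6.67% against 6.59% of all rows, and for 2 higher in DLAs (Kcnma1 being the one described below), 6.67% against 9.27%. Counted by brain, 6 members were higher in the ULA library of 3 of 3 brains (20%, against 15.2% of all rows) and 5 in the DLA library (16.7%, against 23.2%). In bulk samples fewer cells of a type and less RNA per cell cannot be told apart.

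The differences of the 30 tested members had a median of 0.02, with 17 above 0 and 13 below, beside a median of −0.03 over all tested rows. In size, the median was 0.15 for members and 0.14 for all rows. Within 0.5 in either direction lay 27 of 30 members (90%) and 95.9% of all rows. Of the 3 outside it, 1 passed the test, while Kcnip1, with lower values in ULAs, and Kcnq3, with higher values in ULAs, did not. The highest difference among members was 0.54 (Kcnq3), in a table whose rows reached 2.11 and −3.69.

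**Figure D3:**
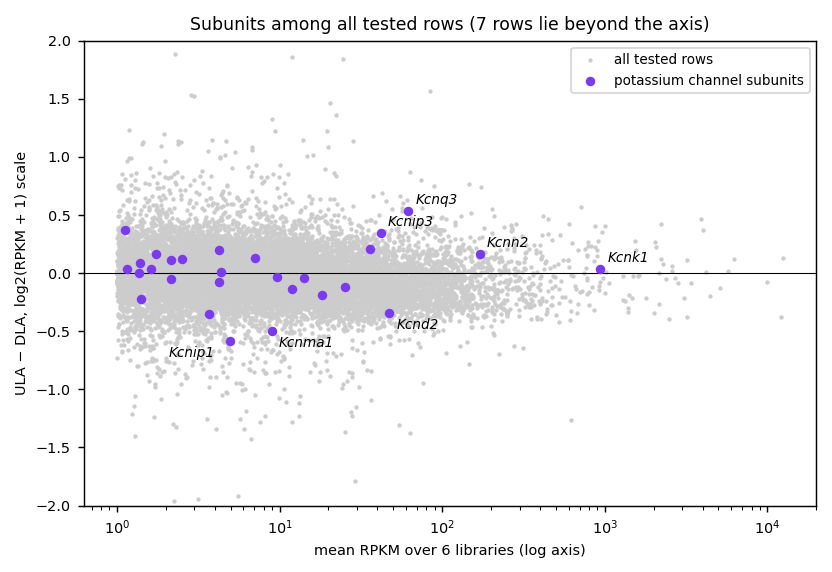
Difference between ULAs and DLAs against mean RPKM (log axis) for all 13999 tested rows in grey and 28 of the 30 tested subunits in purple. They lie between −0.58 and 0.54, within the spread of the grey points, and 7 rows beyond 2 in either direction are not drawn.

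Kcnq3, the Kv7.3 subunit of the neuronal M-current, was the most abundant voltage-gated member. Its levels were 61.84, 85.69 and 69.68 RPKM in ULAs and 41.33, 38.91 and 73.90 RPKM in DLAs. ULAs were higher in brains 1 and 2, while brain 3 had nearly the same level in both layers, so the layers overlapped through the DLA library of brain 3. The difference was 0.54 (SE 0.18, 95% interval 0.13 to 0.94, adjusted p = 0.194 by limma) and passed only when brain 3 was left out (0.84, adjusted p = 2.24e-05). The pattern of Kcnq3 thus rests on which brains are taken.

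Of the other Kv7 members, Kcnq1 (Kv7.1, the cardiac and epithelial member) was at 24.0 ± 3.2 RPKM in ULAs and 26.6 ± 6.9 RPKM in DLAs, with a difference of −0.12 that did not pass and turned to 0.15 without brain 3. Its exons share 3.99% of their bases with Kcnq1ot1. Kcnq5, which can join Kcnq3, had a mean of 0.228 RPKM, and Kcne1, the partner of Kcnq1 in the heart, had 0.00167 RPKM.

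**Figure D4:**
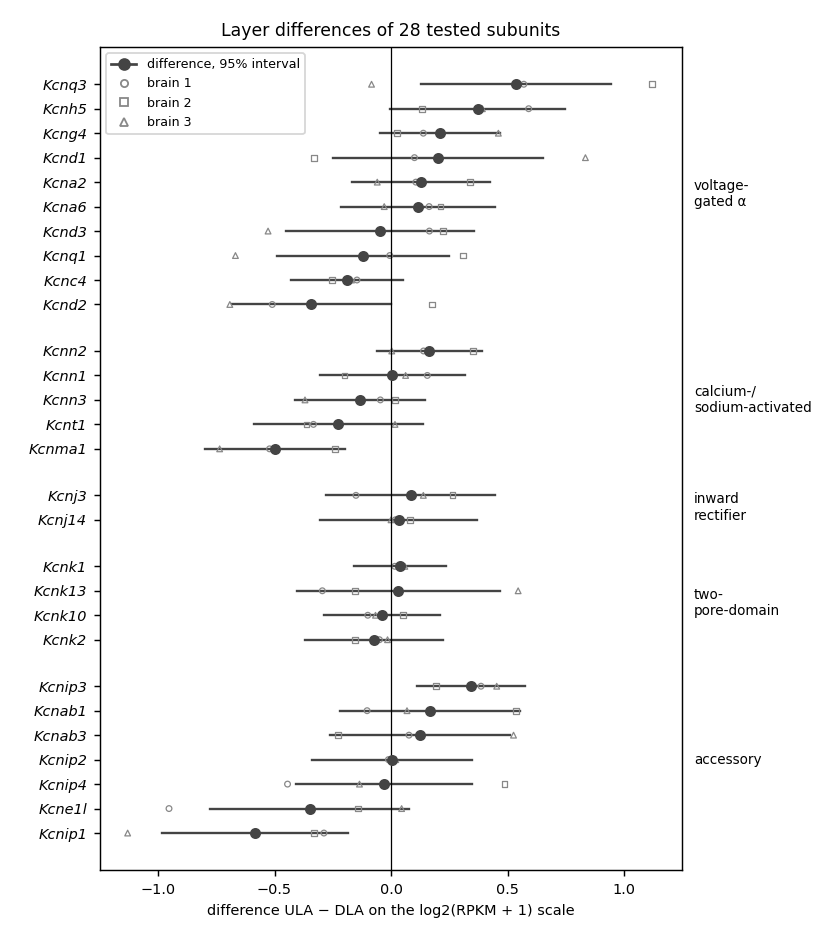
Differences between ULAs and DLAs on the log2(RPKM + 1) scale for 28 of the 30 tested subunits by group, as large points with 95% intervals from limma, and small open symbols for the log2 ratio in each brain. None of the subunits drawn passed at an adjusted p under 0.05, and the brains of Kcnq3 spread from −0.08 to above 1.

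Kv4 channels carry the fast A-type current, and Kcnd2 (Kv4.2) was the main one here, at 31.66, 58.03 and 36.64 RPKM in ULAs and 45.51, 51.24 and 59.81 RPKM in DLAs. DLAs were higher in brains 1 and 3 and lower in brain 2, so the layers overlapped. The difference was −0.34 (SE 0.15, adjusted p = 0.305 by limma) and passed only without brain 2 (−0.60, adjusted p = 0.0253). Kcnd1 (Kv4.1) was at 4.50 ± 1.03 RPKM in ULAs and 3.93 ± 1.61 RPKM in DLAs, with a difference of 0.20 that became −0.11 without brain 3, and Kcnd3 (Kv4.3) at 2.06 ± 0.14 and 2.23 ± 0.852 RPKM.

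Kv channel-interacting proteins (KChIPs) are calcium-binding accessory subunits of Kv4 channels, and all 4 were tested. Kcnip3 encodes KChIP3, also known as DREAM or calsenilin, and was the most abundant accessory subunit, at 49.80, 44.60 and 47.04 RPKM in ULAs and 37.87, 38.85 and 34.08 RPKM in DLAs. The layers did not overlap, with every ULA library above every DLA library. The difference was 0.34 (SE 0.10, 95% interval 0.11 to 0.58, adjusted p = 0.147 by limma), and it passed in none of 12 other fits, where the adjusted p ranged from 0.0554 to 0.75. Kcnip1 had the opposite direction, with 4.93, 2.98 and 3.22 RPKM in ULAs and 6.24, 4.01 and 8.24 RPKM in DLAs. It was higher in the DLA library of each brain, the layers overlapped, and the difference of −0.58 (SE 0.18, adjusted p = 0.152 by limma) did not pass. The size of this difference rested in part on brain 3. It was −0.31 without brain 3, −0.71 without brain 2 and −0.73 without brain 1. Kcnip4 (9.65 ± 2.34 against 9.77 ± 1.31 RPKM) and Kcnip2 (1.37 ± 0.207 against 1.37 ± 0.232 RPKM) had differences of −0.03 and 0.003.

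Summed over the KChIPs, the level was 64.17, 61.32 and 60.15 RPKM in ULAs and 56.78, 52.79 and 53.14 RPKM in DLAs, which did not overlap, and Kcnip3 made up most of it. The sum of all accessory subunits, at 70.7 ± 1.16 RPKM in ULAs and 63.4 ± 3.06 RPKM in DLAs, also did not overlap. It counts Kcnip3 again (47.1 ± 2.6 and 36.9 ± 2.52 RPKM), so it is not a separate result. Of the other accessory families, Kv beta had the higher mean in ULAs (5.18 against 4.47 RPKM). KCNE (3.23 against 4.29 RPKM) and BK beta (0.363 against 0.38 RPKM) had the lower mean in ULAs. These sums are descriptions without a test. The Kv4 partners Dpp6 and Dpp10, which are not members, were low, at no more than 0.19 RPKM in any library.

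**Figure D5:**
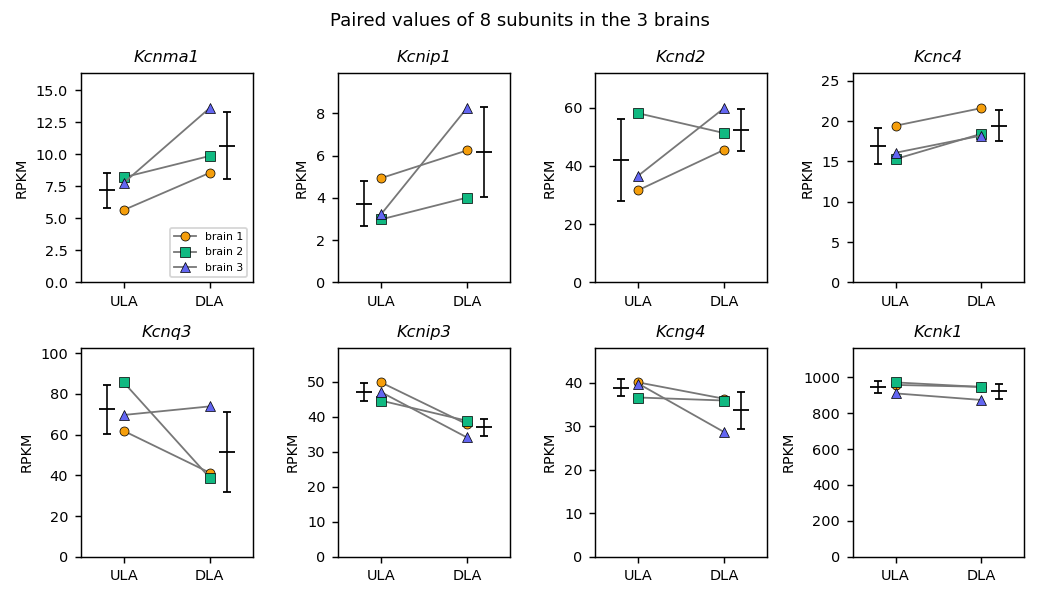
RPKM of 8 subunits in ULAs and DLAs, with lines joining the 2 libraries of a brain and side bars for mean ± SD of 3 libraries (axes start at 0). The upper row has lower ULA means, with Kcnma1 not overlapping. The lower row has higher ULA means, with Kcnip3 and Kcng4 not overlapping and Kcnk1 nearly level.

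Among the remaining accessory subunits, Kcne1l, the X-linked member of the KCNE family of single-pass proteins, was at 2.28, 3.63 and 3.52 RPKM in ULAs and 5.35, 4.11 and 3.38 RPKM in DLAs. DLAs were higher in brains 1 and 2 and level with ULAs in brain 3. The difference was −0.35 (SE 0.19, adjusted p = 0.399 by limma). It was −0.05 without brain 1 and −0.55 without brain 3. The other 4 KCNE members had a mean under 0.1 RPKM or were listed at 0. The cytoplasmic Kv beta subunits Kcnab3 (2.63 ± 0.444 against 2.37 ± 0.693 RPKM) and Kcnab1 (1.92 ± 0.844 against 1.54 ± 0.35 RPKM) did not pass, and Kcnab2 was at a mean of 0.597 RPKM. None of the 4 beta subunits of the calcium-activated BK channel was tested, and their sum was at most 0.84 RPKM in any library.

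Kcnma1 encodes the pore of the BK channel, which opens with both calcium and depolarization. It was at 5.66, 8.21 and 7.78 RPKM in ULAs and 8.56, 9.88 and 13.62 RPKM in DLAs. The DLA libraries lay above the ULA libraries without overlap, but the lowest of them (8.56) was close to the highest ULA library (8.21). The difference was −0.50 (SE 0.13, 95% interval −0.80 to −0.20, adjusted p = 0.107 by limma), and it passed only with a correction for mRNA length (−0.60, adjusted p = 0.0473). The DLA libraries also held more oligodendrocyte marker mRNA, at 179 to 285 against 87.7 to 181 RPKM, and its part in this difference was not tested.

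The small-conductance calcium-activated channels, which sense calcium through bound calmodulin, were led by Kcnn2 (SK2), the second most abundant member. Kcnn2 was at 202.19, 134.29 and 199.17 RPKM in ULAs and 183.48, 105.07 and 198.74 RPKM in DLAs. Brain 2 was the lowest in both layers, and the spread between brains was larger than that between layers. The difference was 0.16 (SE 0.10, 95% interval −0.06 to 0.39, adjusted p = 0.45 by limma). Kcnn2 had a difference of 0.07 without brain 2 and of 0.25 without brain 3. Its exons share 13.9% of their bases with the row A330093E20Rik, so some of its reads could belong to that transcript. Kcnn3 (SK3) was at 11.3 ± 1.66 RPKM in ULAs and 12.5 ± 0.875 RPKM in DLAs and Kcnn1 (SK1) at 4.41 ± 0.614 and 4.36 ± 0.0896 RPKM, and neither passed. The sodium-activated channel Kcnt1 (Slack) was at 1.22 ± 0.398 and 1.58 ± 0.313 RPKM, with a difference of −0.23 (adjusted p = 0.522 by limma).

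Kcng4 encodes Kv6.4, a silent subunit that makes no channel by itself and joins Kv2 subunits. It was at 40.07, 36.60 and 39.79 RPKM in ULAs and 36.31, 35.91 and 28.64 RPKM in DLAs. The layers did not overlap, though the highest DLA library (36.31) was close to the lowest ULA library (36.60). The difference was 0.21 (SE 0.12, 95% interval −0.05 to 0.47, adjusted p = 0.402 by limma). It was 0.08 without brain 3, 0.30 without brain 2 and 0.31 with quantile normalization. The Kv2 member Kcnb2 had a mean of 0.05 RPKM, and none of the other 9 silent subunits reached 1 RPKM.

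Of the Kv3 channels, which let neurons fire fast, Kcnc4 (Kv3.4) was at 19.42, 15.29 and 16.07 RPKM in ULAs and 21.60, 18.42 and 18.20 RPKM in DLAs. DLAs were higher in each brain and the layers overlapped, with a difference of −0.19 (SE 0.11, adjusted p = 0.415 by limma). Kcna2, the main Kv1 member, was at 7.42 ± 0.718 RPKM in ULAs and 6.70 ± 0.465 RPKM in DLAs. Kcna6 was at 2.28 ± 0.452 and 2.04 ± 0.578 RPKM, with 40.3% of its exon bases shared with another row. The ether-à-go-go channel Kcnh5, just inside the filter at a mean of 1.12 RPKM, had 1.47, 0.83 and 1.90 RPKM in ULAs and 0.64, 0.67 and 1.21 RPKM in DLAs, with a difference of 0.37 (adjusted p = 0.31 by limma). None of these passed.

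The 60 members under a mean of 1 RPKM were not tested. Of the 51 above 0, 4 had layers that did not overlap and were higher in ULAs (7.84%, against 3.95% of the 13964 untested rows above 0) and 2 were higher in DLAs (3.92%, against 2.6%), all 6 at a mean under 0.3 RPKM. Kcnk5 (TASK-2) had 0.32, 0.40 and 0.37 RPKM in ULAs and 0.17, 0.16 and 0.16 RPKM in DLAs, on 11 to 34 reads per library. Kcnk7, Kcnn4 and Kcnmb3 were likewise higher in ULAs, on at most 13, 5 and 3 reads in a library, and Kcna1 and Kcns3 were higher in DLAs, on at most 48 and 6 reads. At these numbers of reads the values say little about the layers.

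Genes whose products bind or act with potassium channels were taken from a list of 19 that includes Kcnj10 and Kcnj16. Of these 7 were tested, and by limma 0 passed in either direction, with 0 at an unadjusted p under 0.05 as higher in ULAs (5.64% of all rows) and 2 as higher in DLAs (10.8% of all rows). The calmodulin genes Calm2 (57.0 ± 8.55 against 61.7 ± 2.89 RPKM) and Calm3 (14.8 ± 2.67 against 19.8 ± 1.54 RPKM) had differences of −0.12 and −0.41. Lrrc38, which binds the BK channel, was at 11.4 ± 1.05 and 13.1 ± 0.636 RPKM, and Amigo1, which binds Kv2 channels, at 7.41 ± 1.59 and 7.34 ± 2.88 RPKM. The sulfonylurea receptor Abcc9, partner of Kcnj8, was listed at 0 in all 6 libraries.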

How the data were processed

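RNA of ULAs and DLAs from 3 brains was amplified with SMART-Seq v4 and sequenced as single reads. The authors deposited RPKM values, cut to 2 decimals, with mRNA lengths. The submitters' processing notes name bcl2fastq 1.8.4, CASAVA 1.8.2 and mm9, and the counting program is not given in the sources used here. Rows with a mean of at least 1 RPKM were fitted on log2(RPKM + 1) with limma 3.58.1 in R 4.3.3 (intensity trend, brain and layer as terms, 2-sided, Benjamini-Hochberg over 13999 rows). An adjusted p under 0.05 passed. The brain was a term because the study's methods pair the layers, and libraries of the same number deviated together (r across genes of 0.42, 0.33 and 0.34). The r of other pairs was −0.20 to −0.16. Deviations from a mean of 3 libraries cancel, so these negative values follow from the positive ones and add no support. Exact permutation tests of 3 against 3 cannot go below p = 0.1, or 0.25 when paired, and were not used. Depths came from RPKM steps of rows no longer than 500 bases. There 100% of values were whole reads, against at most 80.0% for another step size, and the depths give counting precision only. The fit was tested on simulated data. Filter stretches were found with Biopython 1.88 in Python 3.11.15. Members and lists were chosen with earlier results of these data known. Named with values are the members that passed, the 10 most abundant, the top member of each family at 1 RPKM or more, the 6 largest differences in each direction, those without overlap, and Kcne1l; others were named after their values were seen. Some genes that the counts include are not reported here. Alternatives were no brain term, a pseudocount of 0.1, no filter, a mean of at least 5 RPKM, quantile normalization, median centring, a length correction, leaving out 1 brain at a time, no trend, RefSeq rows only and an adjusted p under 0.1.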

Additional observations from a re-analysis of the deposited data

How the results depend on the processing

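For the 21 members named by rule, 234 of 244 values under the alternatives kept their direction and their side of the threshold. Without the replicate block, that is with the pairing of layers by brain dropped, 23 rows were higher and 18 lower in ULAs and 0 members passed as lower. With no filter on low rows 0 rows passed in either direction by limma, with 1124 higher and 1675 lower at an unadjusted p under 0.05, and 0 members passed as lower (27963 rows tested). With each brain left out in turn, members passing as higher numbered 0 to 1 and as lower 0 to 2, and rows passing as higher numbered 104 to 426 and as lower 126 to 687, the highest without brain 3. In the same fits the difference ranged from −0.075 to 0.30 for Kcnab3, −0.11 to 0.47 for Kcnd1, −0.34 to 0.15 for Kcnq1, 0.24 to 0.84 for Kcnq3, and −0.60 to −0.17 for Kcnd2. It ranged from −0.55 to −0.05 for Kcne1l, −0.73 to −0.31 for Kcnip1, 0.08 to 0.30 for Kcng4 and 0.07 to 0.25 for Kcnn2. The range was 0.02 to 0.22 for Kcna2 and −0.21 to −0.01 for Kcnn3. Other named members shifted as well. The length correction with the replicate block gave 77 rows higher and 77 lower in ULAs, 2 members lower, with Kcnma1 among them, and 0.0028 for Kcnk10. Rows passing as higher numbered 65 and as lower 79 without the trend, 154 higher and 178 lower with RefSeq rows only, and 209 higher and 255 lower at an adjusted p under 0.1. Among rows of at least 5 RPKM the median of the members was −0.035. The cause of these shifts was not tested. Depth limits the 60 untested members, which had at most 308 reads in a library.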
